A study of Homo sapiens and Mus musculus with 5 samples.

Results

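The fragments described here carry 3 schizophrenia-linked SNPs whose positions lie in the transcription factor genes TCF4, FOXP1 and SP4. They were tested by STARR-seq, in which each cloned fragment sits inside a reporter transcript and acts on that transcript's level, so that its RNA relative to its plasmid DNA measures its enhancer activity. The members were all rows of the SNPs that the tables name by chromosome and position as 18_55532886 (TCF4), 3_71205600 (FOXP1) and 7_21494534 (SP4). These are 3 of the 347 SNPs, 9 of the 984 fragments and 14 of the 1625 fragment alleles with counts in any table. Each gene was named as the 1 protein-coding gene holding the position in the GRCh38.p14 gene table, but the sources used here name no build for the positions. The gene names hold only if they follow GRCh38, and exons, introns and UTRs were not analysed. Fragment sequences and allele bases were not used here, so alleles are called 1 and 2 as in the tables.

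TCF4 is a basic helix-loop-helix protein that binds E-box motifs, and loss of 1 copy causes Pitt-Hopkins syndrome, a neurodevelopmental disorder. FOXP1 is a forkhead transcription factor of developing cortex and striatum, and its mutation causes intellectual disability with language impairment. SP4 is a zinc-finger protein of the Sp family that binds GC-rich promoter elements and is abundant in neurons. The reporter values below describe how strongly the cloned fragments were transcribed, and they do not measure the expression of the TCF4, FOXP1 or SP4 genes themselves.

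The same plasmid pool was transfected into 4 established lines, with no treatment named in the labels. SH-SY5Y (human) and Neuro-2a (mouse) derive from neuroblastomas, PC-12 from a rat pheochromocytoma, although its label gives mouse as the organism, and HEK-293T from human embryonic kidney. RNA libraries numbered 1, 2 and 3 were used for SH-SY5Y, Neuro-2a and HEK-293T, and numbers 1 and 3 for PC-12. All lines were set against the same 3 plasmid libraries, called the input below. RNA libraries held 5875437 to 10201521 counts and input libraries 6380682 to 8421333. RNA counts of exactly 0 were most frequent in HEK-293T replicate 2 (16.4% of alleles) and PC-12 replicate 3 (9.85%) and made up at most 6.80% of any other RNA library. The protocol calls the libraries biological replicates but names no separate cultures, so the spread between them may be partly technical. In the tests against the input, each fit pools the spread of the input libraries with that of the RNA libraries. The p-values and SEs of those tests thus do not measure the spread between RNA libraries alone.

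Each SNP was placed in up to 3 fragments, which had 50, 100 or 150 bases in front of the SNP and 150, 100 or 50 behind. Fragments are named below by the bases in front, and the fragment with 100 is the centred one. TCF4 was represented by both alleles at 50 and 100 and by allele 2 at 150. FOXP1 had both alleles at 100 and allele 2 at 50 and 150, and its allele 1 at 50 was present only in the PC-12 table. SP4 had both alleles at 100, allele 1 at 150 and allele 2 at 50. The remaining alleles are written as 0 in every column and were not analysed here. FOXP1 allele 1 at 50 is written this way outside PC-12, input included, although its PC-12 input counts were 1150, 894 and 1263. This left 14 member alleles in PC-12 and 13 in each other line, all of which passed the minimum mean count of 10.

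Activity is given as the log2 ratio of RNA to input after scaling of library sizes, so that 0 is close to the typical fragment of a library, and a value after ± is the SE of the fit unless SD is named. In each line the TCF4 fragment with 50 bases in front held the lowest of the member alleles present in all 4 tables, and its allele 1 was called below the input in 3 of the 4 lines. No member allele passed the test above the input in any line. The call counts were 1 of 13 alleles in SH-SY5Y, 1 of 13 in Neuro-2a, 1 of 14 in PC-12 and 0 of 13 in HEK-293T. Over all alleles tested, 12.9%, 5.78%, 10.4% and 2.37% were called in these lines (7.43%, 4.08%, 5.64% and 1.35% above the input and 5.51%, 1.7%, 4.77% and 1.02% below it). The share of members called was near this background. In HEK-293T, edgeR's quasi-likelihood test gave 2 of 13 members an unadjusted p under 0.05, DESeq2 called 2 and limma-voom 0, beside 23.7% and 4.04% of all alleles by these tools.

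Allele 1 of the TCF4 fragment with 50 bases in front was the most abundant member in the plasmid pool, with 15963, 13412 and 16932 input counts, at or above the 97.3rd percentile of alleles in each table. Its RNA counts in replicates 1, 2 and 3 were 1505, 520 and 282 in SH-SY5Y, 4323, 1981 and 2793 in Neuro-2a, and 823, 0 and 1285 in HEK-293T. The PC-12 replicates 1 and 3 held 1752 and 1194 counts. The RNA was below the input in 11 of 11 libraries, and the only RNA count of 0 came from HEK-293T replicate 2, the library with the most zeros. Among the non-zero libraries the log2 ratio lay between -2.62 and -1.40 in Neuro-2a, between -3.44 and -3.05 in PC-12, between -3.89 and -3.38 in HEK-293T and between -5.48 and -3.74 in SH-SY5Y. The Neuro-2a libraries were thus the highest and did not overlap with those of any other line. How many of all alleles separate in this way was not counted. The edgeR quasi-likelihood F test between the lines gave this allele an unadjusted p of 0.391 and called 0% of all alleles.

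The fitted activity of this allele was -1.90 ± 0.33 (SE, n = 3) in Neuro-2a, a 3.73-fold lower RNA share, with an adjusted p of 0.0321 by edgeR's quasi-likelihood test. In SH-SY5Y it was -4.44 ± 0.49 (n = 3), or 21.6-fold lower, with an edgeR adjusted p of 0.0101. In PC-12 it was -3.23 ± 0.17 (n = 2), or 9.37-fold lower, with an edgeR adjusted p of 0.00477. It ranked among the lowest 3.94% of alleles in every line. In HEK-293T the fit gave -4.20 ± 1.88 with an edgeR adjusted p of 0.251, and -3.51 with an adjusted p of 0.00842 without replicate 2. Leaving out that library, which held the count of 0, raised the share of all alleles called in HEK-293T from 2.37% to 10.6%. Leaving out any 1 of the 3 input libraries ended each call, with edgeR adjusted p of 0.188 to 0.196 in Neuro-2a, 0.0738 to 0.0765 in SH-SY5Y and 0.0908 to 0.109 in PC-12, and left 0 to 3 alleles called in any whole table. Without Neuro-2a replicate 3 the adjusted p in that line was 0.0708.

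Allele 2 of the same TCF4 fragment was rarer in the pool, with 2314, 1968 and 2368 input counts. Its RNA counts in the same replicate order were 0, 341 and 248 in SH-SY5Y, 0, 1090 and 994 in Neuro-2a, 324 and 0 in PC-12, and 204, 1289 and 339 in HEK-293T. It too was below the input in 11 of 11 libraries, with 3 libraries at 0, and it ranked among the lowest 8.97% of alleles in every line. Its fitted activities were -3.20 ± 1.77 in SH-SY5Y, -1.24 ± 1.88 in Neuro-2a, -3.68 ± 2.37 in PC-12 and -1.77 ± 0.71 in HEK-293T, and none passed the test. With RNA counts of 0 taken as missing in limma, the value was -2.63 in SH-SY5Y (adjusted p = 0.00432), -0.65 in Neuro-2a (adjusted p = 0.0933) and -2.12 in HEK-293T (adjusted p = 0.0959). In PC-12 it was -2.68, a value with no replicate check because 1 RNA library is left there.

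The other TCF4 fragments were not low in the same way. In the centred TCF4 fragment, allele 1 had 4280, 3699 and 4814 input counts and RNA counts of 3363, 5966 and 8680 in SH-SY5Y, 3602, 6748 and 3728 in Neuro-2a, 3450 and 6419 in PC-12, and 2607, 5544 and 6780 in HEK-293T. Relative to the input it was higher in 8 of 11 libraries, and the 3 lower ones were replicate 1 of SH-SY5Y, HEK-293T and PC-12. The fitted activity was between 0.39 and 0.69 in the 4 lines and passed the test in none. Allele 2 of this fragment was above the input in 5 of 11 libraries, with activities of 0.28 ± 0.18 in SH-SY5Y, -0.61 ± 0.43 in Neuro-2a, -0.38 ± 0.12 in PC-12 and -0.06 ± 0.24 in HEK-293T. It lay above the input in all 3 SH-SY5Y libraries, though by only 0.0054 on the log2 scale in replicate 1, and below it in both PC-12 libraries.

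Allele 2 of the TCF4 fragment with 150 bases in front had 6004, 4873 and 6301 input counts. Its RNA counts were 4620, 14805 and 15497 in SH-SY5Y, 1413, 8677 and 8494 in Neuro-2a, 4204 and 15217 in PC-12, and 4434, 11841 and 14719 in HEK-293T. Replicate 1 was below the input in 4 of 4 lines, at a log2 ratio of -0.66 ± 0.67 (SD, n = 4), and replicates 2 and 3 were above it in 7 of 7 libraries, at 1.40 ± 0.34 (SD, n = 7). The fitted activities of 1.25 ± 0.61 in SH-SY5Y, 0.56 ± 0.66 in Neuro-2a, 0.99 ± 0.61 in PC-12 and 1.01 ± 0.40 in HEK-293T therefore average libraries on both sides of the input. None passed the test, and the smallest adjusted p by edgeR's quasi-likelihood test was 0.206.

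For FOXP1, the alleles of the centred fragment lay on opposite sides of the input in most libraries. Allele 2 had 5027, 4229 and 5509 input counts and RNA counts of 5719, 2564 and 3583 in SH-SY5Y, 3249, 2289 and 1357 in Neuro-2a, 3106 and 865 in PC-12, and 3176, 1257 and 3114 in HEK-293T. It was below the input in 11 of 11 libraries, with fitted activities of -0.31 ± 0.20 in SH-SY5Y, -0.67 ± 0.34 in Neuro-2a, -1.18 ± 0.55 in PC-12 and -0.73 ± 0.45 in HEK-293T, and passed the test in none. Allele 1 was rarer, with 1365, 1240 and 1560 input counts, and its RNA counts were 225, 2106 and 2764 in SH-SY5Y, 1145, 3784 and 3205 in Neuro-2a, 280 and 1575 in PC-12, and 397, 3852 and 2071 in HEK-293T. It was above the input in 7 of 7 libraries numbered 2 or 3 (1.20 ± 0.51, SD, n = 7) and below it in replicate 1 of every line except Neuro-2a (-1.63 ± 1.35 over the 4 lines, SD). The fitted values were 0.56 ± 0.94 in SH-SY5Y, 1.40 ± 0.50 in Neuro-2a, -0.35 ± 0.82 in PC-12 and 0.71 ± 0.73 in HEK-293T, and none passed the test.

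The off-centre FOXP1 fragments were mostly at or below the input. Allele 2 with 150 bases in front had 5622, 4565 and 5688 input counts and was below the input in 10 of 11 libraries, SH-SY5Y replicate 3 being the exception. Its RNA counts of 1267, 554 and 1780 made Neuro-2a the line with the lowest activity, at -1.66 ± 0.50 (edgeR adjusted p = 0.112), against -0.26 ± 0.14 in PC-12, -0.33 ± 0.25 in SH-SY5Y and -0.61 ± 0.30 in HEK-293T. The same allele was called below the input in Neuro-2a by DESeq2 (adjusted p = 0.00471) and limma-voom (adjusted p = 0.0468), which called 27.7% and 7.61% of all alleles in that line. Allele 2 with 50 bases in front varied among libraries from 0 counts in Neuro-2a replicate 3 to 2823 in HEK-293T replicate 2, and was below the input in 8 of 11 libraries. Allele 1 with 50 bases in front, present only in PC-12, had 1150, 894 and 1263 input counts and 111 and 0 RNA counts. Its fitted activity of -4.21 ± 2.28 was the lowest of the members in PC-12 and did not pass the test (edgeR adjusted p = 0.277).

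For SP4, allele 2 of the centred fragment had the highest fitted activity of the members in each line. It was also the rarest member in the pool, with 767, 660 and 808 input counts, and its RNA counts were 774, 1273 and 3406 in SH-SY5Y, 195, 185 and 7894 in Neuro-2a, 979 and 3722 in PC-12, and 420, 2461 and 2599 in HEK-293T. The log2 ratio to input was highest in Neuro-2a replicate 3, at 3.94, while the other Neuro-2a replicates were at -1.50 and -1.67. Replicate 1 was below the input in 3 of 4 lines (-0.46 ± 0.81, SD, n = 4). Replicates 2 and 3 were above it in 6 of 7 libraries (1.74 ± 1.74, SD, n = 7). The fitted activities were 1.50 ± 0.71 in SH-SY5Y, 2.42 ± 1.59 in Neuro-2a, 1.88 ± 0.65 in PC-12 and 1.43 ± 0.70 in HEK-293T, at or above the 89.9th percentile of all alleles in each line. None passed edgeR's quasi-likelihood test, with adjusted p of 0.195 in SH-SY5Y, 0.405 in Neuro-2a, 0.142 in PC-12 and 0.286 in HEK-293T. Without replicate 3 the Neuro-2a value was -1.58, so that its direction rested on this 1 library. DESeq2 called the allele above the input in PC-12 (1.90, adjusted p = 0.0174), beside 40.3% of all alleles.

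Allele 1 of the centred SP4 fragment varied the least between lines, at 0.58 ± 0.23 in SH-SY5Y, 0.51 ± 0.41 in Neuro-2a, 0.69 ± 0.30 in PC-12 and 0.48 ± 0.30 in HEK-293T. It was above the input in 9 of 11 libraries and passed the test in no line, and the Neuro-2a value was -0.0063 without replicate 2. The off-centre SP4 fragments were below the input in 9 of 11 libraries each. Allele 1 with 150 bases in front ran from -1.53 ± 1.89 in HEK-293T to -0.069 ± 0.37 in Neuro-2a, and allele 2 with 50 bases in front from -1.49 ± 2.40 in Neuro-2a to -0.19 ± 0.17 in PC-12. The wide error of the latter in Neuro-2a came with RNA counts of 1475, 0 and 4, against 1908, 1657 and 2038 input counts.

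Whether the SNP allele changes activity is the question that the study's fragment pairs address. The allelic effect is the log2 RNA-to-input ratio of allele 2 minus that of allele 1 in the same fragment. Its fit holds a term for every library, so the alleles are compared within libraries. The effect therefore need not equal the difference of the fitted activities above. For the centred SP4 fragment in Neuro-2a the activities were 2.42 (allele 2) and 0.51 (allele 1), but the effect was -0.56. The allelic effect could be tested for 5 member fragments in PC-12 and 4 in each other line. By edgeR's quasi-likelihood test 0 of them were called in each line. Over all fragments 0.166% were called in SH-SY5Y, 0.187% in Neuro-2a and 0% in both PC-12 and HEK-293T, so few calls were made on any fragment. The unadjusted p was under 0.05 for 1 of the 17 member tests, DESeq2 called the same 1 and limma-voom 0, and limma with RNA counts of 0 as missing called 2 (the TCF4 fragment with 50 bases in front, in Neuro-2a and SH-SY5Y). Over all fragments DESeq2 called 12.7% in Neuro-2a, and limma with zeros as missing called 9.36% in Neuro-2a and 3.33% in SH-SY5Y. For the TCF4 fragment, zeros as missing set aside replicate 1 of both lines, where allele 2 had 0 counts.

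The 1 test with an unadjusted p under 0.05 was the centred TCF4 fragment in Neuro-2a, where allele 2 made up 55.3% ± 0.49 (SD, n = 3) of the fragment's input counts and 34.1% ± 7.93 (SD, n = 3) of its RNA counts. The effect was -1.02, -0.93 and -1.90 in the 3 replicates and -1.28 ± 0.39 in the fit (adjusted p = 0.411 by edgeR's quasi-likelihood test, 0.00436 by DESeq2). Allele 2 of this fragment was also the lower in 3 of 3 HEK-293T libraries (-0.40 ± 0.30), in both PC-12 libraries (-0.70 ± 0.42) and in 2 of 3 SH-SY5Y libraries (-0.20 ± 0.45). These lines share the input, so their directions are not independent. The 95% intervals were -2.26 to -0.30, -1.16 to 0.37, -1.87 to 0.47 and -1.33 to 0.94 in Neuro-2a, HEK-293T, PC-12 and SH-SY5Y.

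In the centred FOXP1 fragment allele 2 held 78.0% ± 0.66 (SD, n = 3) of the input counts and 47.1% ± 23.6 to 69.2% ± 23.4 of the RNA counts of a line (SD). Its effect in replicate 1 was 2.84 in SH-SY5Y, -0.32 in Neuro-2a, 1.65 in PC-12 and 1.18 in HEK-293T. In replicates 2 and 3 it was -1.54 and -1.45 in SH-SY5Y, -2.55 and -3.06 in Neuro-2a and -3.44 and -1.24 in HEK-293T, while replicate 3 of PC-12 gave -2.69. Allele 2 was thus lower in 7 of 7 libraries numbered 2 or 3 and higher in 3 of 4 numbered 1. The fitted effects were -0.28 ± 1.34 in SH-SY5Y, -2.02 ± 0.85 in Neuro-2a, -0.52 ± 1.61 in PC-12 and -1.18 ± 1.31 in HEK-293T, and none passed the test.

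In the centred SP4 fragment allele 2 held 20.8% ± 0.80 (SD, n = 3) of the input counts. It was higher than allele 1 relative to the input in 2 of 3 SH-SY5Y libraries, 2 of 3 HEK-293T libraries, both PC-12 libraries and 1 of 3 Neuro-2a libraries. The effects in these lines were 0.51 ± 0.62, 0.67 ± 0.72, 0.91 ± 0.46 and -0.56 ± 1.90, and the Neuro-2a replicates alone ran from -2.84 to 3.75. For the TCF4 fragment with 50 bases in front, where allele 2 held 12.6% ± 0.27 (SD, n = 3) of the input counts, 4 of the 11 libraries had a count of 0 for 1 of the alleles. Its fitted effects were 0.82 ± 2.91 in SH-SY5Y, 0.031 ± 3.28 in Neuro-2a, -3.02 ± 3.38 in PC-12 and 2.42 ± 3.25 in HEK-293T. In the 7 libraries with counts for both alleles allele 2 was the higher, by 0.36 to 2.61. In 3 of the other 4 it was allele 2 that had 0 counts, so the direction was the reverse there. Allele 1 had 1505 counts in SH-SY5Y replicate 1, 4323 in Neuro-2a replicate 1 and 1194 in PC-12 replicate 3. HEK-293T replicate 2 had 0 counts of allele 1. The FOXP1 fragment with 50 bases in front gave 5.58 ± 3.83 in PC-12, where 1 of 2 libraries had 0 counts of allele 1.

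The placement of the SNP could be compared over all 3 fragments for allele 2 of TCF4 and allele 2 of FOXP1. By edgeR's quasi-likelihood F test of the placement term, 0 of these 2 were called in each line, beside 9.51% of all SNP alleles tested in SH-SY5Y, 4.63% in Neuro-2a, 5.6% in PC-12 and 2.64% in HEK-293T. For TCF4 allele 2 the fragment with 50 bases in front was the lowest and that with 150 the highest in each line, with differences from the centred fragment of -4.58 and 0.31 in SH-SY5Y, -1.78 and 0.42 in Neuro-2a, -3.72 and 1.60 in PC-12, and -1.96 and 0.96 in HEK-293T. These differences come from the fit over all 3 placements, which holds a term for every library. Fits of 2 placements at a time gave other sizes, -6.19 and 1.04 in PC-12 and -1.61 and 0.92 in Neuro-2a. In the fit over all 3 placements the unadjusted p was under 0.05 in SH-SY5Y (0.0279, adjusted 0.119) and HEK-293T (0.00316, adjusted 0.0638). With RNA counts of 0 as missing in limma, 1 of the 2 was called in SH-SY5Y, HEK-293T and PC-12, beside 28.5%, 11.9% and 28.3% of all SNP alleles, and in PC-12 the TCF4 fragment with 50 bases in front then keeps 1 RNA library. The TCF4 order was not kept in Neuro-2a with zeros as missing or without replicate 1, where the pairwise difference between 50 and 100 bases was 0.09, nor in PC-12 without replicate 3, where that between 150 and 100 was -0.032. FOXP1 allele 2 showed no such order, with adjusted p of 0.637 to 0.978 in edgeR's F test over all 3 placements. Its difference between 50 and 100 bases in Neuro-2a was 0.29 in that fit and -0.78 in the pairwise fit.

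Pairs of placements were also compared, a choice made after seeing the data. For TCF4 allele 1, the activity with 50 bases in front minus that of the centred fragment was -5.11 ± 1.04 (34.5-fold) in SH-SY5Y, -2.49 ± 0.58 (5.61-fold) in Neuro-2a, -3.56 ± 0.51 (11.8-fold) in PC-12 and -5.48 ± 2.90 (44.7-fold) in HEK-293T. Leaving out 1 RNA library at a time moved the fold, which was 18.3 without replicate 3 and 68.0 without replicate 1 in SH-SY5Y, and 3.82 without replicate 2 and 7.72 without replicate 1 in Neuro-2a. The PC-12 fold was 7.13 without replicate 3 but 19.5 without replicate 1, and in HEK-293T the fold was 14.8 without replicate 2, which holds the count of 0, 334 without replicate 3 and 399 without replicate 1. With all libraries and in the same order of lines the edgeR adjusted p were 0.0787, 0.125, 0.0647 and 0.508, where 0%, 1.7%, 0.239% and 0% of all SNP alleles were called. With RNA counts of 0 as missing in limma the same differences had adjusted p of 0.0297, 0.0482, 0.0156 and 0.0128. The share of all SNP alleles called is not given here for these pairs in that setting. In the test over all 3 placements it was 28.5%, 20.1%, 28.3% and 11.9%, against 9.51%, 4.63%, 5.6% and 2.64% by edgeR. The setting also sets aside HEK-293T replicate 2 for this allele. SP4 had lower fitted values off centre than centred in 4 of 4 lines for allele 1 with 150 and allele 2 with 50 bases in front, with none called. In SH-SY5Y, Neuro-2a, PC-12 and HEK-293T allele 1 differed by -1.48 ± 0.81, -0.46 ± 0.63, -1.42 ± 0.94 and -3.26 ± 2.99. Allele 2 differed by -1.94 ± 1.04, -9.52 ± 5.14, -1.72 ± 0.78 and -1.50 ± 1.09. In replicate 1 allele 2 was instead higher off centre in SH-SY5Y (-0.13 against -0.33), Neuro-2a (0.095 against -1.50) and HEK-293T (0.063 against -0.49). It was lower in PC-12 (-0.17 against 0.48). For 150 against 100 bases the background was 5.1% in SH-SY5Y, 0.542% in Neuro-2a, 2.93% in PC-12 and 0.237% in HEK-293T. None of the 29 member pairs was called by edgeR, and 5 had an unadjusted p under 0.05.

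Differences between the lines were tested over the 11 RNA libraries, in which the shared input cancels. For activity 0 of 13 member alleles were called (0% of all alleles) by edgeR's quasi-likelihood F test, 0 had an unadjusted p under 0.05, and limma with zeros as missing called 0. The smallest p was 0.111, for FOXP1 allele 2 with 150 bases in front, whose activity was 1.13 to 1.43 higher in the other lines than in Neuro-2a. With the replicate number as a block its p was 0.0308 and its adjusted p 0.459. For TCF4 allele 1 with 50 bases in front, SH-SY5Y minus Neuro-2a was -2.50, HEK-293T minus Neuro-2a -2.24 and PC-12 minus Neuro-2a -1.31, with a joint p of 0.391 and an adjusted p of 1.00. For the allelic effect 0 of 4 fragments were called (0% of all fragments), and the smallest unadjusted p was 0.379. These tests do not show that the lines act alike.

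Replicate 1 stood apart from replicates 2 and 3 for several members, and a test of this, chosen after seeing the data, compared them across lines with line as a term. It called 3 of 13 member alleles, all higher in replicates 2 and 3, beside 22.1% of all alleles (16.3% higher and 5.85% lower). The difference was 2.13 ± 0.22 (4.37-fold, edgeR adjusted p = 0.000299) for TCF4 allele 2 with 150 bases in front, 2.71 ± 0.50 (6.56-fold, 0.00549) for FOXP1 allele 1 centred and 1.13 ± 0.28 (2.19-fold, 0.0202) for TCF4 allele 1 centred. The last had adjusted p of 0.0602 to 0.0704 without replicate 1 of SH-SY5Y, HEK-293T or PC-12 or without PC-12 replicate 3. The centred SP4 alleles did not pass, allele 2 at 2.77 ± 0.99 and allele 1 at 0.83 ± 0.27, with edgeR adjusted p of 0.0816 and 0.0585. TCF4 allele 1 with 50 bases in front, low in every library, differed by -0.73 ± 1.22.

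Without replicate 1 of a line more alleles passed the activity test, among the members and throughout the tables. The members called were then 9 of 13 in SH-SY5Y (6 above the input, 3 below), 6 of 13 in Neuro-2a (2 above, 4 below) and 4 of 13 in HEK-293T (all above), beside 54.9%, 41.3% and 31.8% of all alleles. TCF4 allele 2 with 150 bases in front was among them in each of these lines, at 1.73, 1.00 and 1.34. For the allelic effect 3 of 4 fragments were then called in both SH-SY5Y and Neuro-2a, beside 46.9% and 30.5% of all fragments, and 0 of 4 in HEK-293T (20.8%). They were the same 3 in both lines, at -0.65 and -1.42 for TCF4 centred, 2.40 and 1.62 for TCF4 with 50 bases in front, and -1.49 and -2.81 for FOXP1 centred. In both lines replicate 1 held the count of 0 for allele 2 of TCF4 with 50 bases in front. For PC-12 leaving out replicate 1 leaves 1 RNA library, and the spread is then taken from the input alone. What distinguishes replicate 1 is not stated in the labels and was not tested.

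The 14 SNPs in other listed transcription factor genes, among them NFATC3, FOXO3, TCF20, IRF3 and ZNF536, gave 61 to 65 alleles per line. Of these, 3 alleles were called above and 4 below the input in SH-SY5Y, 4 above and 2 below in Neuro-2a, 5 above and 4 below in PC-12, and 0 above and 1 below in HEK-293T. In the same order of lines their median activity was 0.065, 0.023, -0.0051 and 0.0060, against -0.31, -0.15, -0.37 and -0.063 for the members and -0.014, 0.0060, -0.010 and -0.11 for all alleles. The member medians were lower than those of the list in all 4 lines, which was not tested, and the lines share the input.

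The allele of another SNP most like a member over the 11 RNA libraries was found for each SNP from Pearson's r of log2 RNA over input, among alleles with no RNA count of 0. TCF4 allele 2 with 150 bases in front was most like allele 1 of the centred fragment at position 199951659 of chromosome 2, in TYW5 (r = 0.976). FOXP1 allele 1 centred was most like allele 2 of the fragment with 150 bases in front at position 68350593 of chromosome 16, in PRMT7 (r = 0.971). SP4 allele 1 centred was most like allele 2 of the fragment with 50 bases in front at position 103585720 of chromosome 14, in COA8 (r = 0.955). Each is the highest among 1042 or 1043 candidates for each member allele and rests on libraries that share the replicate 1 difference.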

How the data were processed

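The authors deposited raw read counts, with a table for every line and a column for every allele and library, per the file headers. The tables do not hold counts for the same alleles. Input replicate 1 summed to 7619640 in the Neuro-2a table and 7855390 in the PC-12 table. Shares of all alleles thus cover 1471 alleles in Neuro-2a and 1614 in PC-12. How alleles were left out of a line's table was not examined here, and it may depend on their RNA. Per the labels' protocols, RNA came from polyadenylated transcripts, amplified by PCR, and the input from the plasmid pool; PCR reads are not independent molecules. The submitters' processing notes name limma 3.40.6; the sources used here name no aligner, counter or build. Every test was fitted on the whole table in R 4.3.3 with edgeR 4.0.16 (quasi-likelihood, TMM scaling, minimum mean count 10), two-sided, with Benjamini-Hochberg adjustment over all features of that test and an adjusted p threshold of 0.05. SEs derive from the estimate and its F statistic. DESeq2 1.42.0 and limma 3.58.1 were alternatives, as were the low-count filter, RNA zeros as missing, and each library left out. The scripts were tested on simulated counts with the same spread for RNA and input libraries and no added zeros. That test does not show how often the calls are right in these libraries. Named features are all members, and for each SNP the most similar other allele. RNA libraries of the same number deviated together across lines in 15 of 15 pairs (r = 0.146 to 0.708 over 1045 alleles, centred per line), so the number was also fitted as a block. Pairs of differing numbers were not examined, so a difference of replicate 1 alone cannot be told apart from one of each number. The members and lists were chosen with earlier results of these data known.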

Additional observations from a re-analysis of the deposited data

Results flagged for a closer look

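Allele 2 of the centred TCF4 fragment was above the input in every SH-SY5Y RNA library (fitted activity 0.28) and below it in every PC-12 library (-0.38), so that the directions in these lines were opposite and their activities differed by 0.67 on the log2 scale. The difference between lines was tested in edgeR's joint fit over all alleles and did not pass (adjusted p = 1.00 by the quasi-likelihood F test). SH-SY5Y replicate 1 was above the input by 0.0054 only.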

How the results depend on the processing

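Scaling by DESeq2 size factors and both other count filters changed no member's direction or call. DESeq2 called 5 member alleles for activity in PC-12, 3 in Neuro-2a and 2 in HEK-293T, and limma-voom 2 in Neuro-2a. With RNA zeros as missing, limma called 3 in PC-12, 2 in SH-SY5Y and 1 in HEK-293T, but 2 of the 3 in PC-12 (FOXP1 50 allele 1 and TCF4 50 allele 2) keep 1 RNA library. DESeq2 and zeros as missing each called 1 allelic effect in Neuro-2a, zeros as missing 1 in SH-SY5Y, and zeros as missing 1 placement effect each in PC-12, SH-SY5Y and HEK-293T. Over all features these settings called 12.7% and 9.36% of allelic effects in Neuro-2a, 3.33% in SH-SY5Y, and 28.3%, 28.5% and 11.9% of placement effects. Over whole tables DESeq2 called 651 alleles in PC-12, 488 in SH-SY5Y, 408 in Neuro-2a and 370 in HEK-293T, against 168, 202, 85 and 37 by edgeR, and zeros as missing 381, 296, 186 and 107. Directions changed with zeros as missing for activity of FOXP1 centred allele 1 in SH-SY5Y (-0.27) and FOXP1 50 allele 2 in HEK-293T (-0.36) and Neuro-2a (0.39), for the TCF4 50 allelic effect in PC-12 (0.36), and in Neuro-2a for placement 50 minus 100 of FOXP1 allele 2 (0.85) and TCF4 allele 2 (0.09). Directions changed under limma-voom for FOXP1 centred allele 1 in SH-SY5Y (-0.69), FOXP1 50 allele 2 in HEK-293T (-0.14), and in Neuro-2a the SP4 centred (3.19) and TCF4 50 (-0.33) allelic effects. The cause was not tested.

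Leaving out 1 library gave 0 to 14 activity calls in PC-12, 0 to 9 in SH-SY5Y, 0 to 6 in Neuro-2a and 0 to 4 in HEK-293T, beside 0% to 90.1%, 0.192% to 54.9%, 0% to 41.3% and 0% to 31.8% of all alleles. It gave 0 to 5 allelic calls in PC-12 and 0 to 3 in SH-SY5Y and in Neuro-2a, and 2 placement calls in PC-12 and 0 to 1 in SH-SY5Y and in HEK-293T. Over whole tables this was 0% to 89.3%, 0% to 46.9% and 0.187% to 30.5% of allelic effects, and 86.7% to 95.9%, 6.23% to 63.6% and 0.99% to 31.4% of placement effects. Without either PC-12 RNA library the spread there comes from the input alone. Activity changed direction in Neuro-2a for SP4 centred allele 1 (-0.0063 to 0.74), SP4 150 allele 1 (-0.21 to 0.011), FOXP1 50 allele 2 (-0.94 to 0.43) and SP4 centred allele 2 (-1.58 to 2.96), in HEK-293T for TCF4 centred allele 2 (-0.23 to 0.11) and FOXP1 50 allele 2 (-0.94 to 0.60), and in PC-12 for TCF4 centred allele 1 (-0.21 to 0.85), FOXP1 centred allele 1 (-2.22 to 0.44), SP4 150 allele 1 (-1.69 to 0.078) and TCF4 150 allele 2 (-0.35 to 1.67). Allelic effects did so for TCF4 50 in Neuro-2a (-3.42 to 1.62), SH-SY5Y (-2.05 to 2.40) and PC-12 (-10.6 to 0.36), SP4 centred in Neuro-2a (-2.06 to 1.24) and SH-SY5Y (-0.049 to 1.02), TCF4 centred in SH-SY5Y (-0.65 to 0.13) and FOXP1 centred in SH-SY5Y (-1.49 to 0.69) and PC-12 (-2.69 to 1.65). For 50 minus 100 the ranges were -5.07 to 0.087 (TCF4 allele 2, Neuro-2a), and for FOXP1 allele 2 -4.11 to 0.85 in Neuro-2a, -0.77 to 1.49 in HEK-293T and -0.91 to 2.00 in PC-12. For 150 minus 100 they were -0.20 to 0.10 (FOXP1 allele 2, SH-SY5Y), -0.0014 to 0.37 (FOXP1 allele 2, HEK-293T) and -0.032 to 2.11 (TCF4 allele 2, PC-12). Replicates 2 and 3 minus replicate 1 ran from -0.31 to 0.049 for FOXP1 150 allele 2 and from -0.028 to 0.87 for FOXP1 50 allele 2. None of these estimates was called with all libraries. With the replicate number as a block 0 member activities and 0 allelic effects were called between lines, as without it. TCF4 50 allele 1, at a mean of 15436 input counts, had an SE of 1.88 in HEK-293T, with 1 RNA count of 0, and 0.17 in PC-12. SP4 50 allele 2, at 1868, had an SE of 2.40 in Neuro-2a, with 1 RNA count of 0, and 0.17 in PC-12. Whether spread follows input depth was not tested. Depth covers counting error only.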
